A study of Mus musculus with 38 samples.

Results

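The 30 most abundant piRNAs of mouse sperm were taken from small RNA libraries of 38 adult males. Each piRNA entry's reads that matched the genome were divided by all reads of that library matching the genome and expressed as reads per 1000000 (rpm), an entry without reads was counted as 0, and the 30 entries of highest mean over the 38 mice were kept, out of 637529 piRNA entries with at least 1 read matching the genome. The members were chosen by their mean level over all mice, so their ranks and levels are a description and were not tested. Each read is 1 small RNA, so rpm was not divided by length.

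All mice were C57BL6/J males, killed at 11 to 13 weeks, and the RNA came from their sperm. Dams ate a control diet (CT, 20% protein) or, from the plug to weaning on day 21, a protein-restricted diet (PR, 8% protein), and sons then ate one of these diets until death. The first 2 letters of a group name give the diet of the dam and the last 2 the diet after weaning, which gave 10 CTCT mice (control diet throughout), 9 CTPR mice, 9 PRCT mice and 10 PRPR mice. Brothers were divided between the 2 post-weaning diets, and 17 litters contributed a pair of mice, so that mice of a pair shared a mother. For brothers 47I1 (CTCT) and 47I2 (CTPR), the study's own list of mice gives the opposite groups. The labels were followed.

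piRNAs are small RNAs of the germ line that guide PIWI proteins to complementary transcripts and are best known for silencing transposable elements. In the mouse testis they are made in large numbers from long precursor transcripts during meiosis, and mature sperm carry a remainder of them. A database of piRNAs lists sequences that were once sequenced from germ cells, and a read counts as a piRNA when it matches an entry, so an entry can also collect fragments of other RNAs of the same sequence. The entries bear only a number, their sequences were not analysed here, and no role is given here for a single member.

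Reads matching the genome ranged from 4465281 to 7612603 per mouse, and piRNA reads made up between 1.52% (mouse 07C3, CTCT) and 33.2% (CTPR) of them. The median piRNA percentage was 10.1% among CTCT mice, 16.5% among CTPR mice, 11.3% among PRCT mice and 9.02% among PRPR mice. The class totals of 4 mice (07C3, 35F2, 31A3 and 08G5) were found incomplete in earlier work on these files. Brothers 02A6 and 02A8 had the fewest reads matching the genome (4465281 and 4596770). The piRNA entries summed to between 59.5% and 78.9% of the class total of the same mouse. Between mice of a group, counts always differed by more than sampling noise, the lowest chi-square per degree of freedom being 14.8 over 162 pairs. Sperm preparations can hold other cells. The study reported high sperm purity, from methylation at imprinting control regions in all groups and a representative RNA trace without ribosomal RNA peaks. The miRNAs of the male germ line were present in every group, and over all mice 12 of 13 listed entries had a median above 0. Those of epithelium (5 of 5) and muscle (6 of 7) were present as well. Median sums over all mice were 575 rpm for germ line, 491 rpm for epithelium, 1312 rpm for muscle and 24.2 rpm for blood. In the blood list, mmu-mir-144 was at a median of 0 over all mice. In libraries of whole samples, fewer cells of a type and less RNA per cell cannot be told apart.

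The most abundant entry, piR-mmu-3744158, had 1779.8 rpm ± 1387 (SD, n = 38 mice). Its lowest, median and highest values were 114, 1111 and 5761 rpm among CTCT mice, 173, 3185 and 4419 rpm among CTPR mice, 189, 1287 and 2712 rpm among PRCT mice and 356, 1387 and 3751 rpm among PRPR mice. The 4 groups overlapped over most of their range, and this entry was the most abundant piRNA in 25 of the 38 mice. The second, piR-mmu-2819708, had 1010.2 rpm ± 1205 and ranked first in 5 mice. It reached 1246 rpm among CTCT mice (median 673), 5750.0 rpm among CTPR mice (median 921), 2161 rpm among PRCT mice (median 557) and 2670.2 rpm among PRPR mice (median 638), yet was at 0 reads in 7 mice, with at least 1 such mouse in each group.

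The following members were much lower and closer together. piR-mmu-9033385 had 484 rpm ± 406, with medians of 264, 581, 253 and 476 rpm in the CTCT, CTPR, PRCT and PRPR groups. piR-mmu-5619027 had 396 rpm ± 225 and medians of 262, 469, 331 and 321 rpm in the same order. piR-mmu-6814978 had 379 rpm ± 299 and medians of 239, 422, 201 and 271 rpm. From rank 6 the means declined slowly, from 331 rpm for piR-mmu-1938415 to 192 rpm for piR-mmu-27495050 at rank 30. The threshold fell within this slope. Just inside it, piR-mmu-615070 had 193 rpm and piR-mmu-27495050 192 rpm, and just outside it piR-mmu-1162840 had 191 rpm, piR-mmu-1194547 188 rpm and piR-mmu-16586008 178 rpm.

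**Figure D1:**
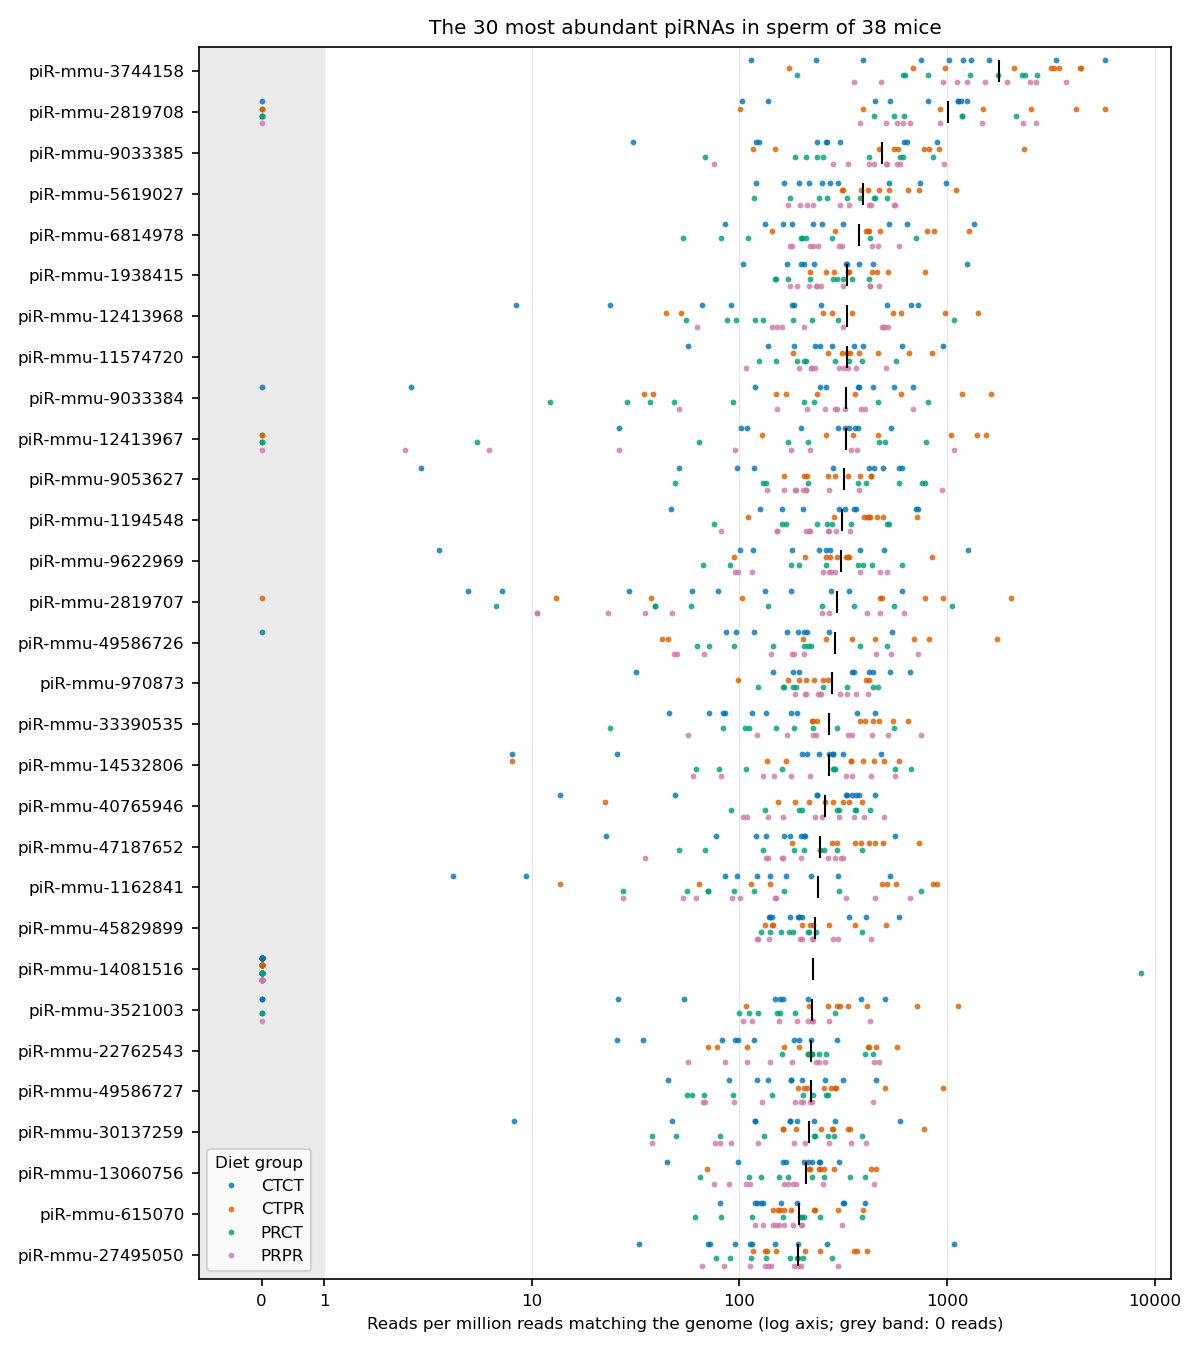
Level in rpm of each member (rows, ordered by mean) in each of the 38 mice, on a log axis with mice at 0 reads in the grey band; points are coloured by diet group and black bars mark the mean over all mice. The groups overlap in every row, and piR-mmu-14081516 has reads in a single PRCT mouse.

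The 30 members together took 9.16% ± 1.67 (SD, n = 38) of the piRNA reads. The lowest, median and highest shares were 7.84%, 8.59% and 9.61% among CTCT mice, 7.86%, 8.83% and 11.6% among CTPR mice, 6.47%, 8.71% and 17.4% among PRCT mice and 8.61%, 9.31% and 12.1% among PRPR mice. The 4 medians differed by less than the SD over all mice. That SD was 0.97 without piR-mmu-14081516, and the SD among CTCT mice was 0.48. The lowest PRPR share lay just above the CTCT median. The summed level of the members spanned 1292 to 29282 rpm, a far wider range than that of their share. The first member alone took 1.42% ± 0.76 of the piRNA reads and the first 10 took 4.62% ± 1.13. With the sum of all listed entries as the denominator, in place of the class total, the median share was 12.8%.

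Individual mice had somewhat different lists. Of the 30 most abundant entries of a single mouse, between 9 (02A6) and 21, with a median of 17, were among the 30 members. In 2 mice the most abundant piRNA was no member at all. Ranking by the median over mice kept 27 of the 30, and ranking by the share of piRNA reads kept all 30. The mice of CT dams and the mice of PR dams, ranked separately, kept 27 and 28, and these 2 lists had 25 entries in common.

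The spread between mice differed among the members. Apart from piR-mmu-14081516, the coefficient of variation (SD over mean) was highest for piR-mmu-2819707 (1.36) and piR-mmu-2819708 (1.19). It was lowest for piR-mmu-615070 (0.448), piR-mmu-40765946 (0.472) and piR-mmu-970873 (0.473). The last of these ranged from 31.9 to 664 rpm. With reads in all 38 mice, 23 of the 30 members were always detected, against 115 of the 300 entries ranked next. The ranks rest on a mean that counts absence as 0, so this difference follows at least in part from the rule and was not tested. The remaining 7 members were at 0 in 1 to 37 mice.

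Apart from those of piR-mmu-14081516, these zeros stood beside reads of entries with neighbouring database numbers. In mouse 46I1 (PRCT), piR-mmu-2819708 had 0 reads and piR-mmu-2819707 had 1063 rpm. Mouse 49K3 (CTPR) showed the reverse, with piR-mmu-2819707 at 0 and piR-mmu-2819708 at 921 rpm. Likewise, piR-mmu-12413967 was at 0 in 5 mice, in which piR-mmu-12413968 had 44.4 to 144.1 rpm. piR-mmu-3521003 was at 0 in 5 mice in which the unbroken run of detected entries around its number summed to between 339.6 and 1614 rpm. The run that an entry at 0 belongs to therefore still had reads, but often at a low level. With piR-mmu-2819708 at 0, its run had 25.2 to 1294 rpm, against a mean of 1441 rpm over all mice. With piR-mmu-12413967 at 0, its run had 47.6 to 146 rpm, against a mean of 660 rpm.

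The same pattern was seen around most members. The entry numbered 1 below a member had a median level, over the 30 members, of 50.6 rpm and the entry 2 below 22.8 rpm, while the entry 1 above had 1.62 rpm and the entry 2 above 0.352 rpm, against 284 rpm for the members themselves. The lower neighbour exceeded the upper in 24 of 30 members, the upper the lower in 5, and in 1 they were equal. Among the 6631 other piRNAs with a mean of at least 10 reads, the lower neighbour was the higher one in 45.0%. No test was made of this difference, since the members were chosen for being high. Exceptions were found too. piR-mmu-3744158, the most abundant member, had 1779.8 rpm while the entry numbered 1 below it had 0.0156 rpm. Counted as runs of consecutive numbers with reads, the 30 members belonged to 26 runs, with 4 adjacent pairs (piR-mmu-2819707 with piR-mmu-2819708, piR-mmu-9033384 with piR-mmu-9033385, piR-mmu-12413967 with piR-mmu-12413968, and piR-mmu-49586726 with piR-mmu-49586727). The level of the run varied less between mice than that of the member in 19 of 30 cases. The run around piR-mmu-2819708, for example, averaged 1441 rpm and was never below 25.2 rpm.

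**Figure D2:**
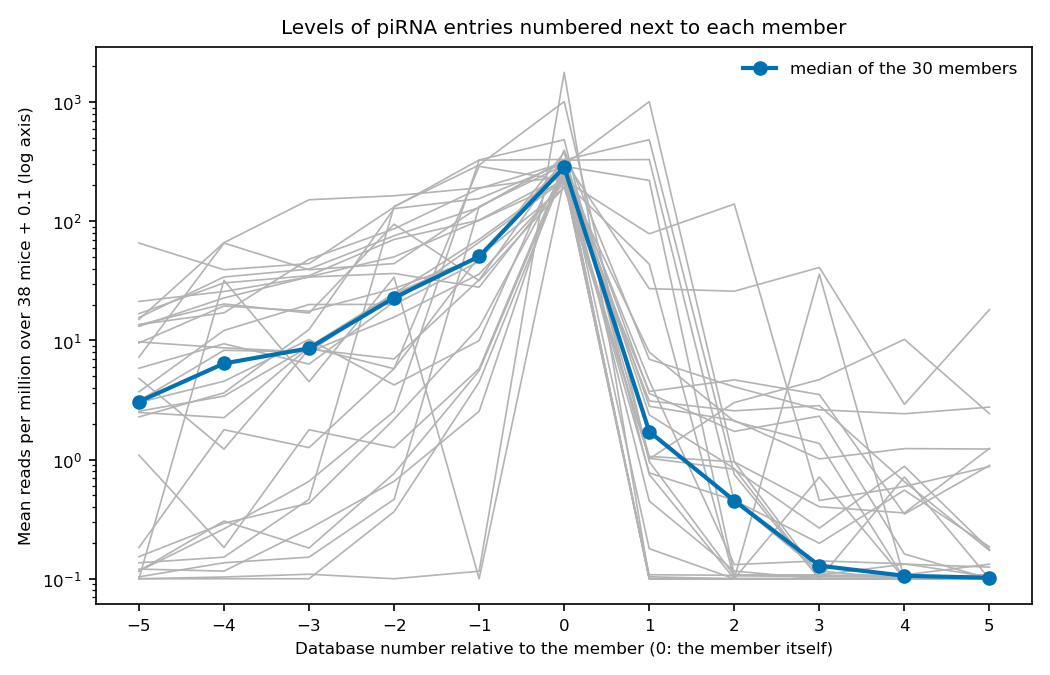
Mean rpm over 38 mice (plus 0.1, log axis) of the entries numbered up to 5 below and 5 above each member; grey lines are the 30 members and the blue line is their median. The median falls stepwise from 284 rpm at the member to 50.6 rpm and 22.8 rpm below it, and drops to 1.62 rpm immediately above it.

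piR-mmu-14081516 stood apart from the other members. It had 50733 reads matching the genome, 8606 rpm, in mouse 51O1 of the PRCT group and 0 in the other 37 mice, where a count of 0 allows up to 3 reads, or 0.394 to 0.672 rpm depending on depth. In mouse 51O1 it made up 7.53% of the piRNA reads (95% exact binomial interval 7.47 to 7.60%, counting error only). There it carried the share of the 30 members to 17.4% (17.3 to 17.5%), against 9.84% (9.77 to 9.92%) for the other 29. Its mean of 226 rpm, and thus its rank of 23, rested on this mouse, and without it piR-mmu-14081516 left the list and piR-mmu-1162840 entered. The entry was nevertheless present in all 38 mice among the reads that did not match the genome, which are counted separately and were not used for the ranks. There it had 1914047 reads in total, with a lowest, median and highest of 9479, 33290 and 76322 reads among CTCT mice, 17028, 56721 and 107739 among CTPR mice, 10809, 51096 and 177067 among PRCT mice and 23491, 45896 and 90296 among PRPR mice. It was the most abundant non-matching piRNA entry in 29 of the 38 mice. Mouse 51O1 had 66235 such reads. None of the other 29 members had a read that did not match the genome.

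**Figure D3:**
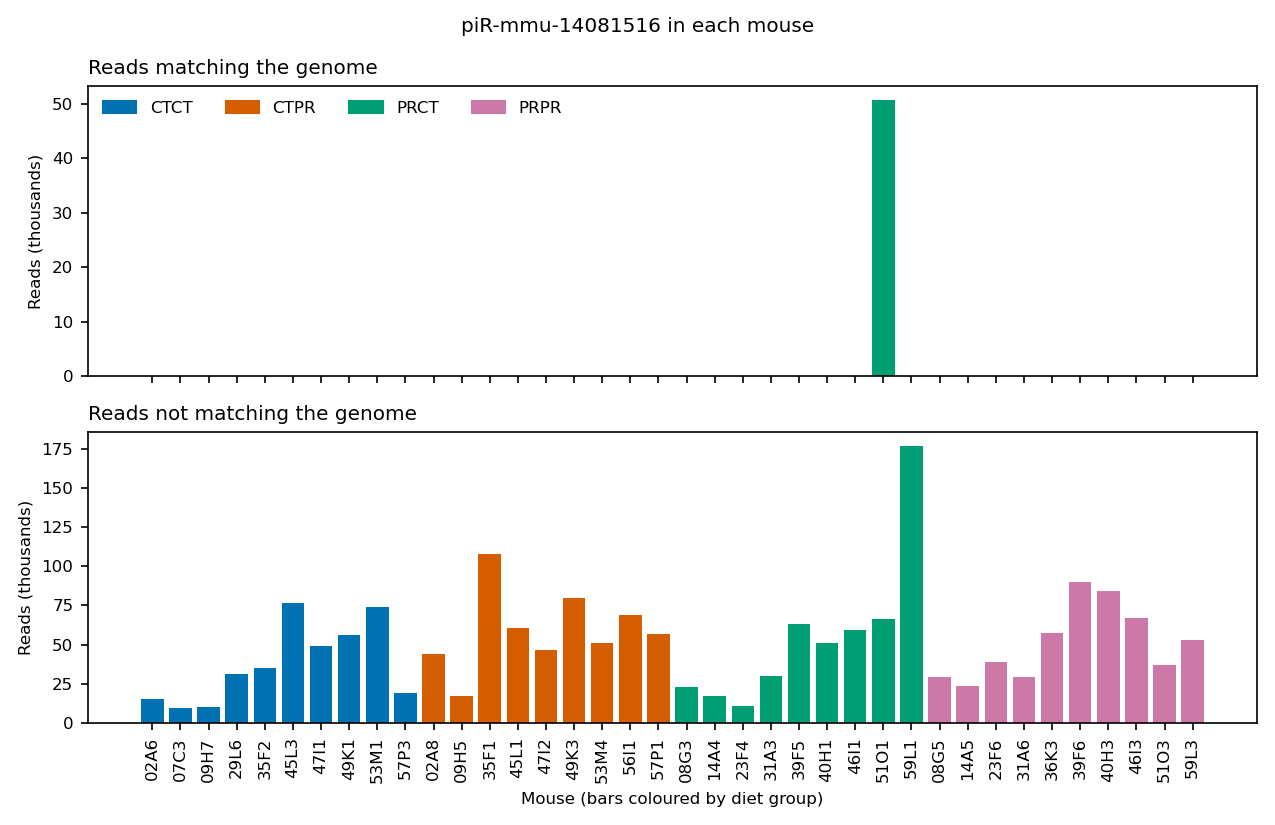
Reads of piR-mmu-14081516 in each mouse, in units of 1000 reads, matching the genome (top) and not matching it (bottom), with bars coloured by diet group. Matching reads occur in mouse 51O1 alone, whereas non-matching reads occur in all 38 mice.

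To describe how the members varied together, their log2(rpm + 1) was correlated across the 38 mice with the log2 rpm of 10 small RNA classes, both as deviations from the diet group mean. The piRNA class was taken without the member. Of 300 pairs of member and class, 125 passed an adjusted P of 0.05 (two-sided permutation test of Pearson's r, Benjamini-Hochberg over the 300 pairs), and 115 did so with Spearman's rho. These permutations treated the 38 mice as independent, although 17 litters gave a pair of mice. The deviations of littermates correlated at a median r of 0.28 (-0.42 to 0.59), which was not compared with other pairs of mice. With 1 mean for each of the 21 litters in place of the mice, an alternative chosen after seeing the data, 88 of the 300 pairs passed, 87 of them among the 125, and all 125 kept their sign. Member and class are parts of the same library, so one can fall because another rises.

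Other piRNAs rose with 26 of the 30 members and miRNAs with 19, and no member fell with either. Such correlations were not computed for single piRNAs outside the 30. The counts given here and below are therefore not shown to be particular to the members. snoRNAs, which guide modifications of ribosomal RNA, were negatively correlated with 18 members and positively with none. The closest relation was that of piR-mmu-14532806 with miRNA (r = 0.91, rho = 0.87, adjusted permutation P = 0.000111 and 0.000136, r = 0.86 without the 2 mice of most extreme miRNA). piR-mmu-3744158 followed miRNA nearly as closely (r = 0.90, rho = 0.85, and 0.86 without 2 mice), as did piR-mmu-9033385 (r = 0.89, rho = 0.85, and 0.86). For all 3, the permutation P of 1e-05 was the smallest that 100000 permutations can give.

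Cellular tRNA was positively correlated with 18 members and mitochondrial tRNA with 8, and neither was negatively correlated with any. The members named here were not a set apart from those that followed miRNA. With miRNA, piR-mmu-13060756 had r = 0.51 and piR-mmu-33390535 r = 0.48. piR-mmu-22762543 followed mitochondrial tRNA, from the transfer RNAs that serve translation inside mitochondria (r = 0.89, rho = 0.88, permutation P = 1e-05, r = 0.88 without 2 mice), and piR-mmu-33390535 did so more loosely (r = 0.69, rho = 0.69, and 0.62). piR-mmu-13060756 followed cellular tRNA (r = 0.83, rho = 0.86, permutation P = 1e-05, and 0.81). Some members moved against snoRNA and with lincRNA, the long intergenic transcripts. piR-mmu-1938415 had r = -0.78 with snoRNA (rho = -0.74, and -0.69 without 2 mice) and 0.73 with lincRNA (rho = 0.54, and 0.51). piR-mmu-27495050 had -0.77 (rho = -0.71, and -0.69) and 0.71 (rho = 0.53, and 0.48), and piR-mmu-6814978 -0.76 (rho = -0.79, and -0.74) and 0.57 (rho = 0.52, and 0.44). The lincRNA relation of these members thus weakened without 2 mice and in ranks, whereas that with snoRNA changed less. Other calls rested on 2 mice. For piR-mmu-49586726 with snRNA, r was -0.43 and became -0.14 without them (rho = -0.18). For piR-mmu-40765946 with lincRNA it was -0.63 and became -0.06 (rho = -0.29).

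**Figure D4:**
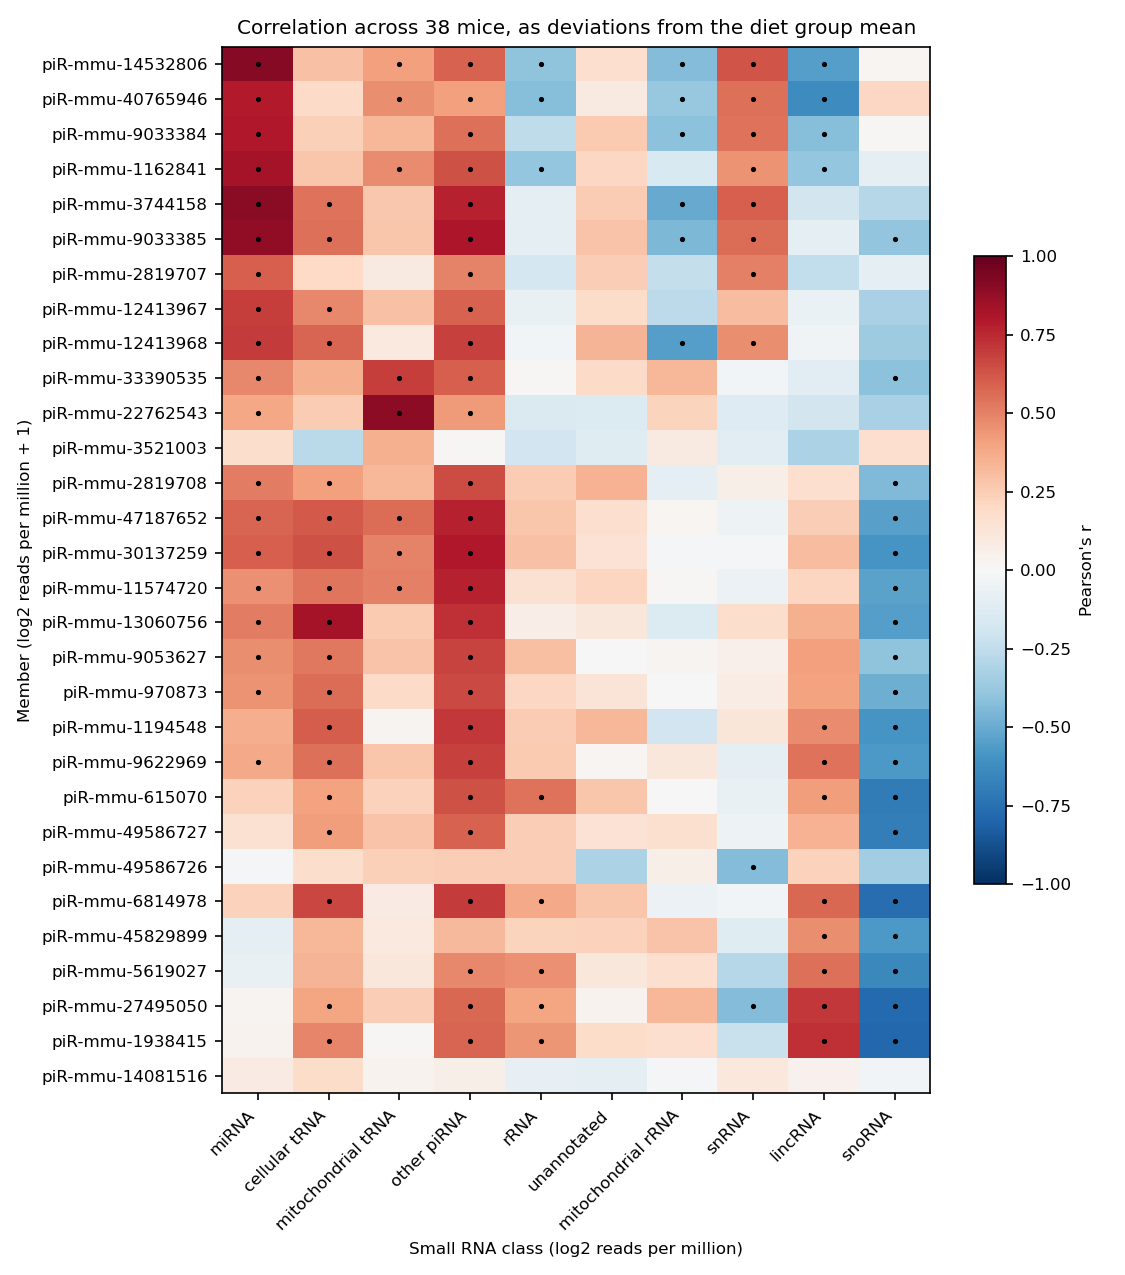
Pearson's r across 38 mice between each member (rows) and each small RNA class (columns), as deviations from the diet group mean; dots mark an adjusted permutation P under 0.05. Rows are ordered by r with miRNA minus r with lincRNA, from members that follow miRNA (top) to members that follow lincRNA and run against snoRNA (bottom), and piR-mmu-14081516 is last.

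Between members, 212 of 435 pairs passed an adjusted P of 0.05 (two-sided permutation test, adjusted over the 435 pairs), each of them positive, and the median r was 0.34. Over the 21 litter means, 180 of the 435 pairs passed, 174 of them among the 212. The highest was that of piR-mmu-47187652 and piR-mmu-30137259 (r = 0.93, rho = 0.89, r = 0.90 without 2 mice), followed by piR-mmu-14532806 and piR-mmu-40765946 (r = 0.91, rho = 0.76, and 0.83) and by piR-mmu-3744158 and piR-mmu-9033385 (r = 0.89, rho = 0.82, and 0.85). piR-mmu-6814978 and piR-mmu-1938415, which both ran against snoRNA, had r = 0.86 (rho = 0.89, and 0.82). Adjacent numbers did not make for the closest pairs. The 4 adjacent pairs had r of 0.16 (rho = 0.28, piR-mmu-2819707 and piR-mmu-2819708, which did not pass) to 0.74 (rho = 0.73, piR-mmu-9033384 and piR-mmu-9033385).

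Of the 19 members that passed with miRNA, 18 also passed with each of the 4 lists of marker miRNAs (adjusted permutation P of 0.05 over the 124 pairs computed). The exception was piR-mmu-22762543, which did not pass with the epithelial and blood lists. Across mice, the summed germ line, epithelial, muscle and blood miRNAs had r of 0.93, 0.98, 0.99 and 0.89 with all miRNA (rho = 0.91, 0.97, 0.98 and 0.89, each permutation P = 1e-05, and 0.92, 0.96, 0.98 and 0.89 without 2 mice). piR-mmu-14532806 had r of 0.85, 0.89, 0.89 and 0.81 with the 4 lists in this order (rho = 0.87, 0.85, 0.86 and 0.83, permutation P = 1e-05). The lists therefore did not separate germ line from other cells for this member, and their part in the levels was not tested.

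The effect of diet on the members was tested with edgeR's quasi-likelihood test on all 7002 small RNA features with a mean of at least 10 reads, in which all 30 members were included, piR-mmu-14081516 only through mouse 51O1. For post-weaning restriction after a control dam (CTPR against CTCT), no member passed an adjusted P of 0.05, against 170 features, or 2.43%, of all features tested. DESeq2 gave 0 members here and in each comparison below. At an unadjusted P under 0.05 there were 6 members, all higher in CTPR, against 14.8% of all features (12.9% higher and 1.99% lower). The level was higher in CTPR for 24 of the 30 members and 79.9% of all features. The median log2 fold change was 0.61 over the members and 0.67 over all features. Of these features, 6631 were other piRNAs, with a median of 0.67, so that the members' shift was close to theirs. That shift depended on the scaling. With TMM factors the median over all features was 0.13 and over the members 0.10, and of 3 members at an unadjusted P under 0.05 only 1 was higher. TMM sets the typical feature near no change, and most features tested were piRNAs. The TMM fit therefore cannot decide whether the piRNAs rose together.

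piR-mmu-47187652 had the smallest P. Its lowest, median and highest levels were 22.8, 169 and 559 rpm among CTCT mice, 180.0, 385 and 732 rpm among CTPR mice, 51.4, 206 and 390.4 rpm among PRCT mice and 35.0, 179.8 and 317 rpm among PRPR mice. The CTPR mice began where the middle of the CTCT mice lay, and the highest CTCT mouse was 47I1. The log2 fold change was 1.10 ± 0.38 (SE, edgeR adjusted P = 0.114), and with litter as a block it was 1.13 ± 0.39 (edgeR adjusted P = 0.778). With piRNA reads as the library size it was 0.71 ± 0.26. Without mouse 47I1 it was 1.46 and passed (edgeR adjusted P = 0.0282), and with any other single mouse left out it did not.

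piR-mmu-33390535 had 45.7, 125 and 448 rpm among CTCT mice, 223.4, 404 and 652 rpm among CTPR mice, 23.7, 149.7 and 557 rpm among PRCT mice and 56.4, 284 and 748 rpm among PRPR mice. Its CTPR values lay in the upper part of the CTCT range and above it. The log2 fold change was 1.22 ± 0.42 (edgeR adjusted P = 0.119) in CTPR and 0.89 ± 0.41 (edgeR adjusted P = 0.512) in PRPR against CTCT. The other members named by the rule were piR-mmu-22762543 (1.03 ± 0.40, edgeR adjusted P = 0.192), piR-mmu-9033385 (1.09 ± 0.47, edgeR adjusted P = 0.251) and piR-mmu-49586726 (1.44 ± 0.63, edgeR adjusted P = 0.264). Of these, piR-mmu-9033385 included mouse 57P1 at 2345 rpm, and piR-mmu-49586726 mouse 02A8 at 1733 rpm, each far above the other CTPR mice. Without one mouse at a time the log2 fold change ranged from 0.64 to 1.36 for piR-mmu-9033385 and from 0.93 to 1.77 for piR-mmu-49586726.

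The marker miRNAs moved with the CTPR group too. The germ line list ranged from 29.7 to 1115 rpm in CTCT (median 428) and from 142.3 to 1744 rpm in CTPR (median 1048). The epithelial list ranged from 38.9 to 1294 rpm (median 525.5) and from 34.2 to 2227 rpm (median 1044). Muscle miRNAs ranged from 63.5 to 3276 rpm (median 1549) and from 71.6 to 8575 rpm (median 2606), and blood miRNAs from 5.73 to 36.7 rpm (median 26.3) and from 7.75 to 93.3 rpm (median 36.4). Medians were higher in CTPR for each list. Their part in the members' levels was not tested.

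**Figure D5:**
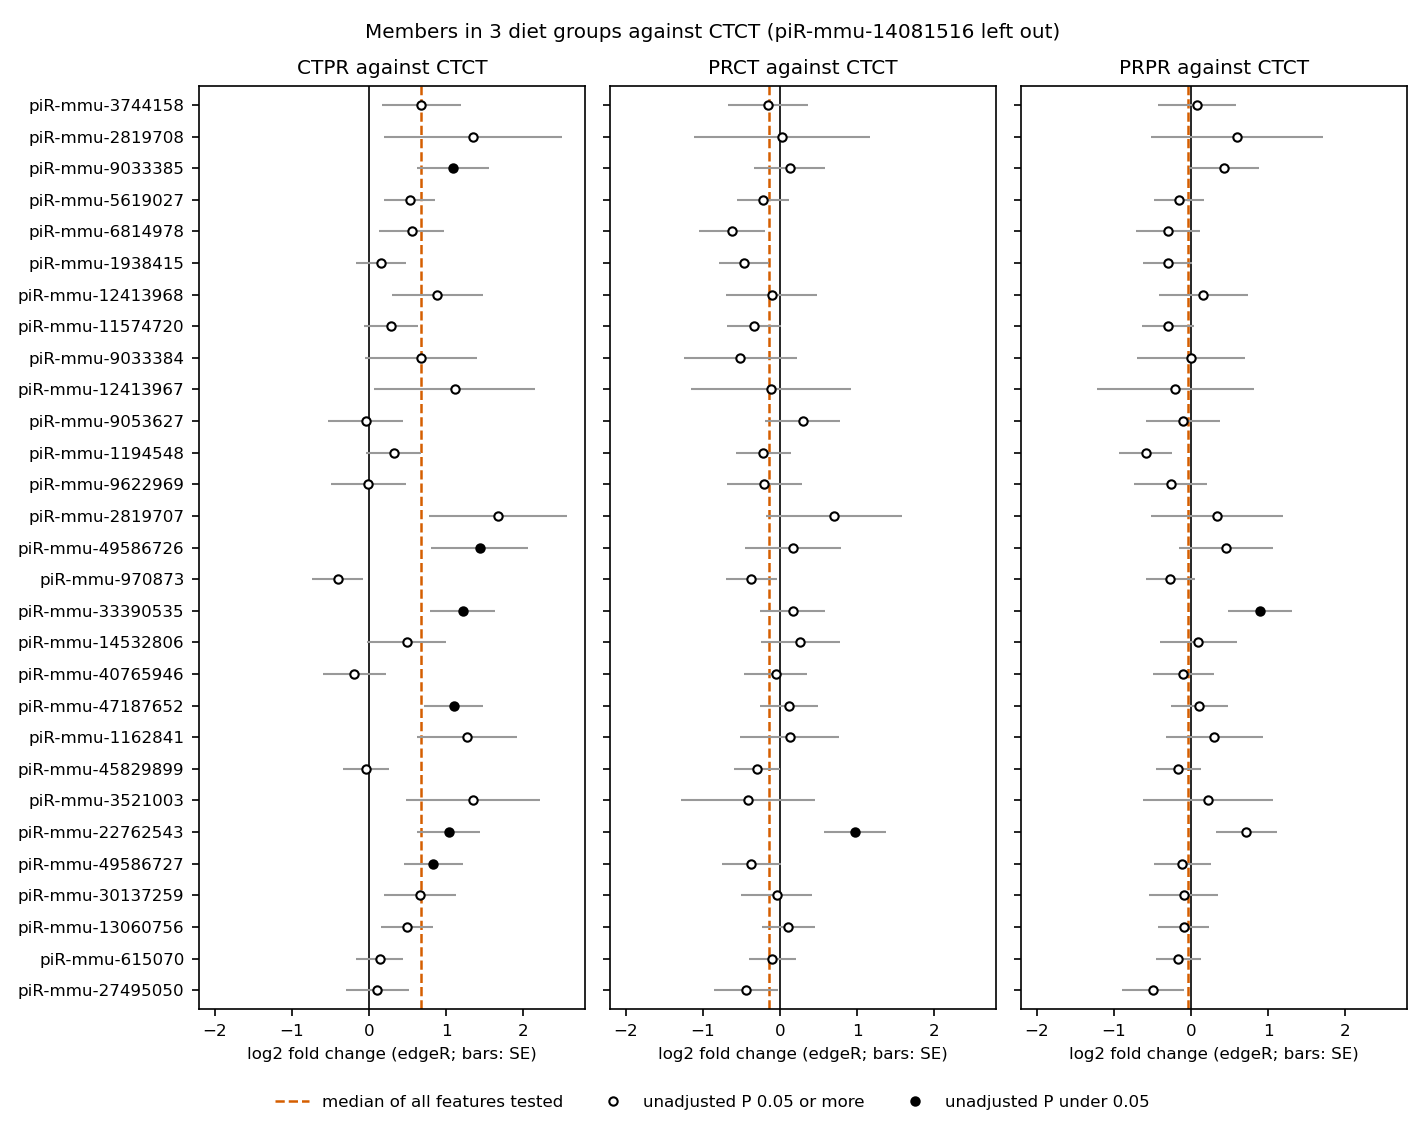
Log2 fold change of 29 members (rows) in the CTPR, PRCT and PRPR groups against CTCT, with SE bars from edgeR; filled points have an unadjusted P under 0.05, and the dashed line is the median of all 7002 features. In CTPR the members scatter around a dashed line at 0.67, and in the other groups around lines at -0.15 and -0.04.

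Pre-weaning restriction alone (PRCT against CTCT) left no member past an adjusted P of 0.05, against 0.557% of all features, and 2 at an unadjusted P under 0.05, against 8.87%. One was piR-mmu-14081516 with its single mouse, for which no fold is given as the CTCT group was at 0. The other was piR-mmu-22762543, with 25.7, 108 and 297 rpm (lowest, median and highest) among CTCT mice and 160.6, 223.2 and 441 rpm among PRCT mice. Its log2 fold change was 0.97 ± 0.40 (edgeR adjusted P = 0.354), and in the other groups it had 70.4, 193 and 575 rpm (CTPR) and 56.6, 207 and 469 rpm (PRPR), so that all 3 restricted groups had a higher median than CTCT and overlapped with it. The median log2 fold change of the members was -0.10, against -0.15 over all features.

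Restriction before and after weaning (PRPR against CTCT) gave 0 members at an adjusted P of 0.05, against 0.657% of all features, and 1 at an unadjusted P under 0.05, against 8.44%, piR-mmu-33390535. The median log2 fold change of the members was -0.09, against -0.04. For post-weaning restriction after a restricted dam (PRPR against PRCT), the numbers were 0 (0.386% of all features) and 1 (7.73%), the latter again piR-mmu-14081516 with its mouse 51O1, and the medians were 0.05 and 0.09. These comparisons share control mice with each other and are not independent.

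Whether the post-weaning difference depended on the dam's diet was tested with the interaction term, the CTPR against CTCT difference minus that of PRPR against PRCT. No member passed an adjusted P of 0.05, against 2.13% of all features, and 2 had an unadjusted P under 0.05, against 9.47%. With litter as a block, over the 17 litters of 2 mice, 0 of 7084 features passed in this term, in CTPR against CTCT and in PRPR against PRCT (edgeR), while 265, 439 and 274 had an unadjusted P under 0.05. In the fit without the block, the 2 members at an unadjusted P under 0.05 were piR-mmu-22762543 (1.29 ± 0.57, edgeR adjusted P = 0.411) and piR-mmu-47187652 (1.11 ± 0.53, edgeR adjusted P = 0.500). The term was above 0 for 26 of the 30 members and for 71.2% of all features, with medians of 0.60 and 0.58. With piRNA reads as the library size it was above 0 for 12 of 30, with a median of -0.09. That scaling measures a share of the piRNA reads and takes out any change common to the piRNAs. It therefore cannot decide the direction of this term for the members' levels. No member's post-weaning response was shown to differ between dams. Among the piRNAs ranked lower, 6631 of which were tested, 985 had an unadjusted P under 0.05 in CTPR against CTCT and 170 an adjusted P under 0.05.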

How the data were processed

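Small RNA of sperm was sequenced by the authors in 38 mice (inserts of 13 to 73 bp, 15 PCR cycles). They mapped reads to mm10 and small RNA databases with the SPORTS pipeline, per the study's methods, and deposited raw read counts per class and class member, without pooling. Database versions are not given in the sources used here. Groups came from the sample labels. The members, lists and tests were chosen with earlier results of these data known.

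From the counts, rpm was computed with reads matching the genome as the denominator. Diet groups were compared by the quasi-likelihood method of edgeR 4.0.16 under R 4.3.3 (functions glmQLFit, then glmQLFTest; that denominator as library size, 4 groups in 1 fit, features with a mean of at least 10 reads, Benjamini-Hochberg over 7002 features), and checked on simulated data. SE was derived from the F statistic. DESeq2 1.42.0, TMM, other filters, litter as a block and leaving out mice were alternatives. Correlations used Python 3.11.15, numpy 2.4.6, scipy 1.17.1 and pandas 2.3.3, with 100000 permutations.

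Named in full were the first 5 members, up to 5 per comparison with an unadjusted P under 0.05, the 3 of highest and of lowest coefficient of variation, the 3 of highest correlation with another class and ranks 31 to 33; other entries named were chosen after their values were seen. Littermates carry a litter code in the labels, which pairs the mice. Over the members, the deviations of littermates correlated at a median r of 0.28 over 17 pairs (-0.42 to 0.59). The shallowest library had 4465281 reads matching the genome. Pairs of mice in a group differed by more than sampling noise (lowest chi-square per degree of freedom 14.8). Single counts could still be low, such as 15 reads of piR-mmu-12413967 in mouse 36K3. The edgeR P tests a group difference against the spread between mice, and the permutation P tests a correlation. The main edgeR fit left out litter and treated the 38 mice as independent.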

Additional observations from a re-analysis of the deposited data

Results flagged for a closer look

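Of 121 sets of values (a member, or the members' share of piRNA reads, in 1 diet group), 24 had a mouse separated from the others by a gap that was large for the range of the group, in 18 members. Chance alone flags about 1 in 20, or 6.05 here, for values with a symmetric spread, and these values were skewed towards high levels. All of these mice were high. Mouse 02A6 (CTCT), with the fewest reads matching the genome, was apart for piR-mmu-6814978 (1344 rpm), piR-mmu-1938415 (1248 rpm), piR-mmu-9622969 (1268 rpm) and piR-mmu-27495050 (1076 rpm). Its brother 02A8 (CTPR) was apart for piR-mmu-49586726 (1733 rpm). Mouse 40H3 (PRPR) was apart for piR-mmu-12413967 (1078 rpm), piR-mmu-9053627 (946 rpm) and piR-mmu-13060756 (447 rpm), and its brother 40H1 (PRCT) for piR-mmu-1162841 (754 rpm) and piR-mmu-45829899 (391 rpm). Mouse 57P1 (CTPR) was apart for piR-mmu-9033385 (2345 rpm) and piR-mmu-2819707 (2033 rpm), and 57P3 (CTCT) for piR-mmu-49586726 (542 rpm). Mouse 47I1 (CTCT), whose group differs between the labels and the study's list, was apart for piR-mmu-47187652 (559 rpm) and piR-mmu-30137259 (597 rpm). Mouse 08G5 (PRPR), with incomplete class totals, was apart for piR-mmu-49586727 (442 rpm) and piR-mmu-615070 (312 rpm). Single cases were piR-mmu-12413968 in 59L1 (PRCT, 1079 rpm), piR-mmu-9622969 in 45L1 (CTPR, 849.9 rpm), piR-mmu-49586727 in 56I1 (CTPR, 962 rpm) and piR-mmu-30137259 in 49K3 (CTPR, 775 rpm).

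piR-mmu-14081516 in mouse 51O1 (PRCT) had 8606 rpm against 0 in each other mouse, and the share of piRNA reads in the 30 members was accordingly 17.4% in this mouse. That share was also apart in mouse 36K3 (PRPR), at 12.1%. Outside the reads used for the ranks, piR-mmu-14081516 had 1914047 reads that did not match the genome, spread over all 38 mice.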

How the results depend on the processing

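The count of 0 members past an adjusted P of 0.05 was also found, for each of the 5 comparisons, with TMM factors, piRNA reads as library size, filterByExpr, piRNAs only, DESeq2, the older edgeR method, and without litter 02A or the 4 mice of incomplete totals (filterByExpr kept 29 members). For CTPR against CTCT, 1 member passed without a filter on low counts (piR-mmu-2819708, in a fit over 638403 features, adjusted P = 0.0145), 1 with mice 47I1 and 47I2 exchanged (piR-mmu-22762543, 0.0364) and 1 without litter 47I (piR-mmu-47187652, 0.0379). Without a filter, 1 passed in PRCT against CTCT and 1 in PRPR against PRCT, in both cases piR-mmu-14081516, which rests on mouse 51O1. The cause was not tested. Leaving out 1 mouse at a time gave 0 to 2 members for CTPR against CTCT, 2 only without 47I1 (piR-mmu-47187652 and piR-mmu-33390535), and 0 in each fit for the other comparisons. Litter as a replicate block, over 17 pairs, also gave 0 members in the 3 comparisons it allows. Among all features the block gave 0 of 7084 in each of them, against 10, 3 and 119 for CTPR against CTCT, PRPR against PRCT and the interaction in the same mice without it. PRCT and PRPR against CTCT are between litters and could not be blocked. Members at an unadjusted P under 0.05 in CTPR against CTCT numbered 6, but 3 with TMM factors, 3 with piRNA reads as library size, 12 without a filter, 10 without litter 47I and between 4 and 10 without 1 mouse. Among all features in that comparison, 170 passed an adjusted P of 0.05, 61 with TMM factors, 78 with DESeq2, 5 with the older edgeR method, 20 without the 4 mice, 381 without a filter and 0 with filterByExpr or the litter block. Summing consecutive database numbers and leaving out mouse 51O1 for ranks and shares were chosen after seeing the data, and the former gave 0 members. In CTPR against CTCT, the summed run of piR-mmu-9033385 and piR-mmu-9033384 had a log2 fold change of 0.79 ± 0.54 (edgeR unadjusted P = 0.150). The runs of piR-mmu-47187652, piR-mmu-33390535, piR-mmu-22762543 and piR-mmu-49586726 stayed under an unadjusted P of 0.05. In the interaction, the run of piR-mmu-47187652 had 0.98 ± 0.58 (edgeR unadjusted P = 0.0945), and that of piR-mmu-22762543 stayed under 0.05. The median share of piRNA reads became 12.8% over the sum of entries. Between 27 and 30 members were kept under the other rankings. The number of member and class pairs past an adjusted P of 0.05 was 125, 124 as levels, 111 without the 4 mice and 88 over litter means, and 122 of the 125 kept their sign without 2 mice. Each member had at least 44313 reads over all mice, so the spread between mice rather than depth limits these comparisons.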
